A study of Homo sapiens with 42 samples.

Results

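10 single HEK293T cells that carried a cytoplasmic adenosine deaminase were compared with bulk RNA of the same cell line and construct, site by site and gene by gene. HEK293T is a human embryonic kidney line with the SV40 large T antigen. In both kinds of sample a plasmid for TadA-8e, an evolved bacterial tRNA adenosine deaminase, was delivered by lipofection with a nuclear export signal (NES) and GFP, for transient expression in cells of wild-type genotype, and GFP-positive cells were sorted by flow cytometry. The whole series held 42 samples, among them 10 single cells and 2 bulk libraries of poly(A) RNA with the NES construct. The single cells were read with a SMART-Seq chemistry without strand marks and the bulk libraries with a stranded kit after poly(A) selection, so the library method and the kind of sample cannot be told apart. No culture was named for the cells, which are therefore 1 sample of 10 cells, and no p-value was computed from them. Nor do the labels say whether the bulk libraries came from separate cultures, so their SD measures the spread between libraries only. No single cell with GFP alone was analysed here, so the cells have no background of their own.

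The deaminase turns adenosine into inosine, which is read as guanosine, and it acts on adenosines that are not paired in the RNA structure. The share of reads with guanosine at an adenosine, called the rate here, therefore depends on the RNA's structure, on where the enzyme and the RNA meet and on how much enzyme a cell holds. An enzyme kept out of the nucleus meets RNA after export, in the cytosol and at the outer face of the endoplasmic reticulum (ER), where mRNAs of secreted and membrane proteins are translated.

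A site was a chromosome, position and strand, and a shared site was one of the 907935 sites in the bulk table that 5 or more cells also listed. This left 122948 shared sites, or 13.5% of the bulk sites, in 4387 genes, of which 3038 had at least 5 shared sites and were compared. The remaining genes with a bulk site had too few shared sites and are not described. The value of a gene in the cells was the mean over its shared sites of the mean over the cells that listed each site, and the bulk value was the mean of both libraries at the same sites.

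The sequence around edited adenosines is shown first, since the mean rate differed by the base before the adenosine in the cells and in bulk. The sites below are among those with the highest mean over cells for each preceding base, taken from sites in the first 50 bases of annotated transcripts (RefSeq, GRCh38.p14, the same build as the files) that all 10 cells listed. The capitals mark the preceding base and the edited adenosine, in 29 bases written 5′ to 3′.
TUBA1B, chr12:49131357-49131385, minus strand: ttacctcgactctTAgcttgtcggggacg
POLR2F, chr22:37953708-37953736, plus strand: gccgcgcgagtcgTAgtgtcgctgtttgc
ZFAS1, chr20:49278658-49278686, plus strand: gcccggagtgtggTActtctcctagttgc
UCHL3, chr13:75549798-75549826, plus strand: ctggagggccgggCAccgcggccatggag
RPLP2, chr11:809983-810011, plus strand: gccaccgaggtcgCAcgcgtgagacttct
MIF, chr22:23894383-23894411, plus strand: agtggtgtccgagAAgtcaggcacgtagc
ATP5MG, chr11:118401606-118401634, plus strand: ccttccggcgggtGAcattcagccggcgg
At the TUBA1B site, in the RNA of an alpha tubulin, bulk was at 49.96% ± 3.02 (SD, n = 2) and the cells ran from 9.63% through a median of 47.4% to 81.8%. The ATP5MG site, in the RNA of an ATP synthase subunit, was at 8.10% ± 0.0858 in bulk and at 0.372% to 28.3% in the cells, with a median of 10.1%. The cells surrounded the bulk value at both sites, and the range over cells was far wider than the difference between bulk libraries.

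Among the 2398 bulk sites in these windows every site read A in the reference, and 608 of them were shared. A T preceded 38.7% of the shared sites and 10.9% of all adenosines in the windows. The mean rate after T was 17.5% in bulk and 22.7% in the cells. After C it was 10.1% in bulk and 13.5% in the cells, after A 8.77% and 11.9%, and after G 6.52% and 10.5%. The mean after T was above that after each other base in 10 of 10 cells, with 14.5% in the lowest cell, a median of 22.4% and 31.1% in the highest.

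The cells differed widely from each other in mean rate and lay on both sides of bulk. Over the shared sites that each cell listed, mean rates ran from 11.7% in cell 1 to 26.4% in cell 4, with a median of 20.6% and an SD over cells of 5.44 points, while bulk at the same sites stayed between 13.7% and 14.96%. 6 cells had a mean above bulk and cells 1, 7, 9 and 10 had one below. Averaged over cells, the shared sites stood at 19.3% against 13.8% ± 0.0111 (SD, n = 2) in bulk. This direction turned at the 16080 sites that all 10 cells listed, where the cells averaged 16.4% and bulk 18.2% ± 0.0177, and the means of 6 cells lay below bulk. The single-cell files list no rate of 0 and no read number, so a site that a cell does not list was either not read or read without a change, and a mean over listing cells leaves the unchanged ones out. With every unlisted shared site counted as 0, the mean over cells was 13.01%, below bulk.

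**Figure D1:**
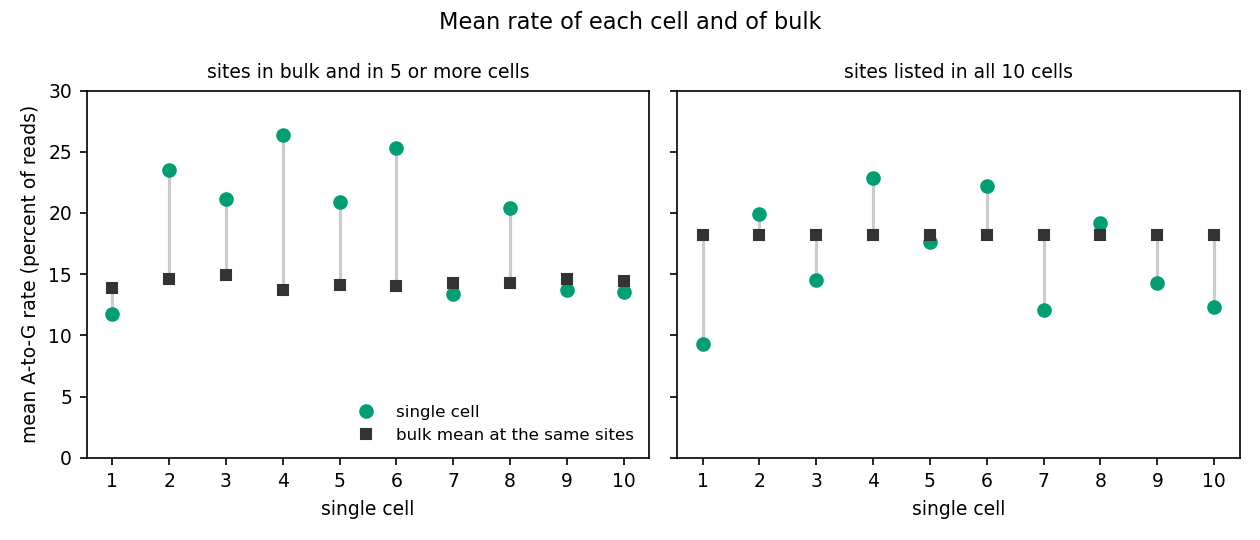
Mean A-to-G rate in percent of reads (y axis) for each of the 10 cells (x axis; circles) and for bulk at the same sites (squares), over sites in bulk and in 5 or more cells (left) and over sites listed in all 10 cells (right). On the left 6 cells lie above bulk, from 11.7% to 26.4% over all cells. On the right 6 cells lie below the bulk mean of 18.2%.

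The cells listed between 146445 and 551317 sites each, with a median of 334553, and a median of 51.1% of a cell's sites was in the bulk table. Of the 1817250 sites that any cell listed, 64.7% were listed in 1 cell only. A shared site varied over cells with a median SD of 13.5 points, against 0.907 points between the bulk libraries. At 31.6% of the shared sites a cell under 5% stood beside a cell over 50%. The depth behind a rate is unknown in both kinds of file, so the part of this spread that comes from few reads was not tested.

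Gene levels in the cells followed those in bulk across genes. Spearman's rho between the mean over cells and bulk was 0.80 over 3038 genes and 0.80 over shared sites. Between the bulk libraries it was 0.97 over genes and 0.96 over sites. Single cells stood lower against bulk, from 0.45 in cell 1 to 0.72 in cell 9 over sites, and the 45 pairs of cells lay between 0.28 and 0.54. Genes and sites of a library share its depth and chemistry and are not replicates, so these values describe the tables.

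**Figure D2:**
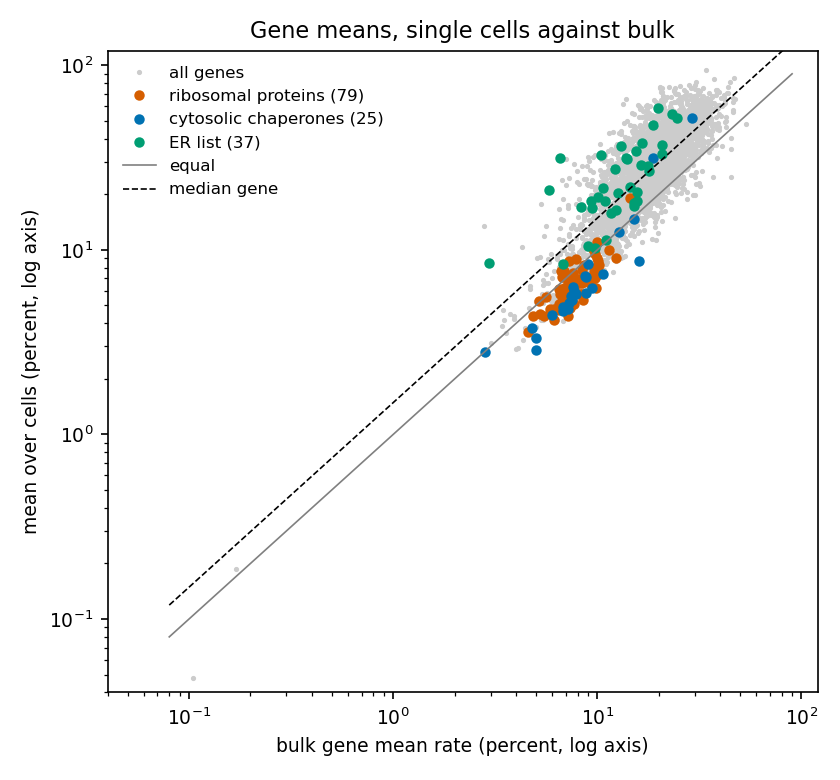
Mean rate of 3038 genes over the cells (y axis, percent, log scale) against bulk (x axis, percent, log scale). Ribosomal protein genes (79) and cytosolic chaperone genes (25) lie mostly below the dashed line of the median gene, and genes of the ER list (37) mostly above it. The solid line marks equal rates.

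The median gene was 0.57 higher in the cells than in bulk on the log2 scale. Gene ratios are given relative to this median gene, as log2 of cells over bulk, and a gene was counted when it stood at least 2-fold above or below it. Of 3038 genes, 76 were at least 2-fold higher (2.5%) and 71 at least 2-fold lower (2.34%), or 4.84% in either direction. Without centring, 617 genes were at least 2-fold higher in the cells (20.3%) and 1 was at least 2-fold lower (0.0329%). When all 10 cells had to list a site, 634 genes remained, the median gene was at -0.11, and 4 genes were at least 2-fold higher and 0 lower. Relative ratios at these sites are centred on that median, so their reference differs from that at all shared sites. With unlisted sites as 0 the counts were 72 higher and 17 lower. For gene and list values an unlisted site counted as 0 only in cells that listed a shared site of that gene. The counts in both directions therefore depended on the choice of sites and on the genes left to set the median. The lists below are given at all shared sites and, where at least 3 genes remained, at the sites of all 10 cells.

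The ratio of a gene moved with the share of its bulk sites that the cells listed. The median relative ratio was 0.21 for the 728 genes with up to 10% of their bulk sites shared and -0.90 for the 28 genes above 90%, and Spearman's rho over all 3038 genes was -0.39. With unlisted sites as 0 the same bins stood at 0.13 and -0.40. Among the most fully listed genes, all 95 bulk sites of HSPA6, an inducible Hsp70, were shared, as were 389 of 390 of DNAJB1, an Hsp40 co-chaperone, and 238 of 244 of GAPDH.

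**Figure D3:**
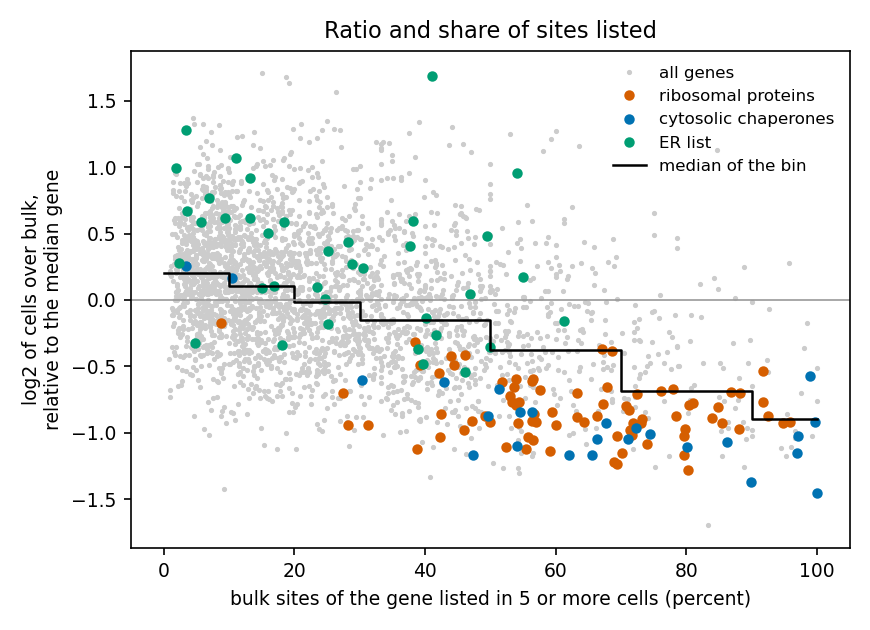
Relative log2 ratio of cells over bulk (y axis) against the percent of a gene's bulk sites that 5 or more cells listed (x axis), for 3038 genes. The black steps are the medians of 7 bins, which run from 0.21 to -0.90. Ribosomal protein and chaperone genes lie to the right and low. ER genes lie to the left of these and mostly higher, with a median share of 25.1%, against 21.2% over all genes.

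Messenger RNAs of the ER folding and translocation machinery stood higher in the cells than the median gene. The ER list held chaperones, translocon subunits and cargo receptors, and 37 of its 45 genes were measured. Of these, 27 were above the median gene and 10 below, and the list's median was 0.28, against 0 over all genes by construction. At least 2-fold higher were 3 and lower 0, against 2.5% and 2.34% of all genes. The list's median was above that cell's median gene in 9 of 10 cells, from -0.09 in cell 6 to 1.43 in cell 1. The 3 highest values, in cells 1, 7 and 10, came from the 3 cells of lowest mean rate. At the sites of all 10 cells the list kept 10 genes, 9 of them above the median gene, with a median of 0.61, and it was above in 10 of 10 cells, from 0.15 to 1.21. With unlisted sites as 0 the median was 0.36. The cells listed 21.02% of the list's bulk sites as shared, against 13.5% over all genes, and the part of this share in the result was not tested.

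HSPA5 encodes BiP, the Hsp70 of the ER lumen, and lies at chr9:125234853-125241343. At its 118 shared sites the cells ran from 2.12% to 20.7%, with a median of 9.51%, and bulk was at 2.96% ± 0.04 (SD, n = 2). 9 of 10 cells lay above bulk, and the relative ratio was 0.95. At the 36 sites that every cell listed, cell 4 was at 3.43%, the median cell at 12.1% and cell 6 at 30.7%, against 5.23% ± 0.18 in bulk. Only cell 4 lay below bulk at these sites, and the relative ratio was 1.42. Without cell 6, which was highest, the ratio over shared sites was 0.80.

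PDIA4, a protein disulfide isomerase of the ER lumen at chr7:149003051-149028505, had the highest relative ratio of the genes that met the naming rule, at 1.69. Its 44 shared sites stood at 6.60% ± 0.13 in bulk and at 15.3% in the lowest cell, 21.5% in the median cell and 75.3% in the highest. All 10 cells lay above bulk and above their own median gene, and the ratio was 1.68 with unlisted sites as 0. Fewer than 5 of its sites were listed in every cell. At the 28 shared sites that 5 bulk tables held, the cells were at 34.4% and NES poly(A) bulk at 7.83%. The other tables, described below, were at 19.8% (NES, rRNA-depleted), 12.2% (NES, K562), 6.03% (ER membrane) and 5.32% (nuclear).
CANX, the lectin chaperone calnexin, was at 10.7% ± 0.15 in bulk and at 11.5% to 41.5% in the cells, with 9 of 10 cells above bulk and a relative ratio of 0.44. At its 29 sites in all 10 cells the range was 12.1% to 66.9%, against 21.3% ± 0.23 in bulk, and the ratio was 0.79. HSP90B1, the Hsp90 of the ER, was at 8.43% in the cells and 6.81% in bulk. Its relative ratio was -0.27 at the shared sites and 0.19 at the sites of all 10 cells. TMED2, a cargo receptor of transport vesicles, was at -0.13 and 0.34. HSP90B1 and TMED2 thus changed side of the median gene, which differs between the 2 sets of sites, and HSPA5 and CANX did not. Without centring, none of these genes changed sign. HSP90B1 was at 0.31 and 0.08, TMED2 at 0.44 and 0.23, HSPA5 at 1.53 and 1.30 and CANX at 1.01 and 0.68. The other list members at least 2-fold higher beside PDIA4 were SSR1 and SSR3, subunits of the translocon-associated protein complex, at 1.28 over 5 sites and 1.07 over 29.

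Both related lists lay on the same side, with fewer measured members. Of 47 membrane and secreted protein genes 15 were measured, 12 above the median gene and 3 below, with a median of 0.38 and 1 gene at least 2-fold higher. Their 4 genes with the most sites were SLC3A2, an amino acid transporter chain, at -0.53, BSG, the surface protein basigin, at 0.07, ATP1B3, a sodium pump subunit, at 0.01, and TMBIM6, an ER membrane protein, at -0.13. At the sites of all 10 cells these 4, the only list members left, were at 0.03, 0.52, 0.50 and 0.32, with a median of 0.41. Of 30 genes of cholesterol and fatty acid synthesis 12 were measured, 8 above and 4 below, with a median of 0.50. At least 2-fold higher were 2 of the 12. Over all genes 2.5% were at least 2-fold higher, and counts of 1 or 2 members are not read as a result about these lists. SCD, the stearoyl-CoA desaturase of the ER membrane, had 70 of 496 bulk sites shared. It was at 32.7% in the cells and 10.9% ± 0.20 in bulk, with 9 of 10 cells above bulk and a relative ratio of 1.01. ACLY, the cytosolic ATP citrate lyase, was at 0.89 with 5 of 10 cells above bulk, IDI1, an isomerase of the pathway, at -0.04 and FDFT1, squalene synthase, at 0.03. The list's median was 0.24 without cell 4. Of the bulk sites of these genes, 10.6% were shared.

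Other genes with high relative ratios had wide ranges over cells. They were MCL1, a survival factor of the Bcl-2 family, MRPS16, a protein of the mitochondrial ribosome, ATRAID, a membrane protein, TM2D3, WDR36 and QRICH1, with relative ratios from 1.23 to 1.37. Of their bulk sites, 12 of 269 were shared for MCL1, 21 of 84 for MRPS16, 19 of 43 for ATRAID and 10 of 37 for TM2D3. For WDR36 19 of 158 were shared, and for QRICH1 13 of 115. MCL1 was at 15.8% ± 0.50 in bulk and at 22.5% to 99.4% in 9 cells, all above bulk. MRPS16 was at 7.71% ± 0.54 in bulk and ran from 8.01% to 67.4% over 10 cells, all above bulk. Fewer than 5 sites of each of these 6 genes were listed in every cell, so none could be compared at the same sites in all of them. In all, 28 genes at least 2-fold higher met the rule for naming and 64 genes at least 2-fold lower did.

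Messenger RNAs of the cytosolic translation and folding machinery stood lower in the cells than the median gene. Of 80 cytosolic ribosomal protein genes 79 were measured, and all 79 lay below the median gene, with a median of -0.88. At least 2-fold lower were 16 of the 79, against 2.34% of all genes. Large subunit genes (46) and small subunit genes (31) had medians of -0.88 and -0.87. The list's median was below the median gene in 10 of 10 cells, from -1.41 in cell 3 to -0.43. Restricted to sites of all 10 cells, 71 of 78 genes were below and 7 above, with a median of -0.30 and no gene past the 2-fold, and with unlisted sites as 0 the median was -0.50. As deposited, without centring, the median was -0.30. The cells listed 60.4% of the bulk sites of these genes as shared, against 13.5% over all genes, and the part of this share in the result was not tested.

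RPS6, a protein of the small subunit at chr9:19375715-19380236, had 187 shared sites, at 7.18% ± 0.11 in bulk and at 2.88% to 8.41% in the cells, with a median of 5.31%. Its relative ratio was -1.28, and no cell was above bulk at the sites that the cell listed. At the 58 sites listed by every cell it was at 16.5% ± 0.23 in bulk and at 3.69% to 14.5% in the cells, so all 10 cells lay below bulk, with a relative ratio of -0.66. RPL4, RPL5 and RPL3, proteins of the large subunit, stood at -1.11, -0.97 and -0.78, and at -0.54, -0.36 and -0.18 at the sites of all 10 cells. At those sites 1 cell was above bulk for RPL4 and 3 cells each for RPL5 and RPL3. Without centring, RPS6, RPL4, RPL5 and RPL3 were at -0.71, -0.54, -0.40 and -0.21 at all shared sites. At the sites of all 10 cells they were at -0.77, -0.65, -0.47 and -0.29.

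Cytosolic chaperone genes were lower still. Of 26 genes 25 were measured, 23 below the median gene and 2 above, with a median of -1.01. At least 2-fold lower were 13 of the 25, against 2.34% of all genes. The median of the list was below in 10 of 10 cells, from -1.07 to -0.27 in cell 10. With sites of all 10 cells, 21 of 22 genes were below, with a median of -0.40, and 9 of 10 cells were below. Cell 10 was the exception there, at 0.22. With unlisted sites as 0 the median was -0.61. A share of 66.6% of the list's bulk sites was shared. The 13 included HSPA8, HSP90AA1, HSPB1, the co-chaperones STIP1 and PTGES3 and the chaperonin subunits TCP1, CCT2, CCT3 and CCT4. HSPA1A, also among them, has a near-identical copy, HSPA1B, and its value is uncertain.

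HSPA8, the constitutive Hsp70 of the cytosol at chr11:123057489-123062462, had 507 shared sites of 564 in bulk. Bulk was at 5.02% ± 0.03 (SD, n = 2), the lowest cell at 0.843%, the median cell at 3.72% and the highest at 4.41%. The relative ratio was -1.37. At the 184 sites in all 10 cells bulk was at 10.8% ± 0.06 and the cells at 1.52% to 9.25%. No cell reached bulk on either set of sites, and the ratio on the second was -0.69. Without centring the ratio was -0.80 on each set. HSP90AA1, the stress-inducible cytosolic Hsp90 at chr14:102080742-102139749, had the most shared sites of all genes, 927 of 956. It stood at 5.02% ± 0.01 in bulk and at 2.17% to 4.80% in the cells, with a relative ratio of -1.15, and at 2.91% to 5.89% against 7.25% ± 0.02 at the 534 sites of all 10 cells. DNAJA1, an Hsp40, and HSPH1, an Hsp110, were below bulk in all 10 cells on both sets of sites, with relative ratios of -1.07 and -0.96, and -0.41 each at the sites of all 10 cells. HSPD1, the mitochondrial chaperonin, lay below bulk in every cell as well, at -1.12 and -0.45. Sites that the files assign to HSP90AB1 and POLR1C together were at -0.99 and -0.37.

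**Figure D4:**
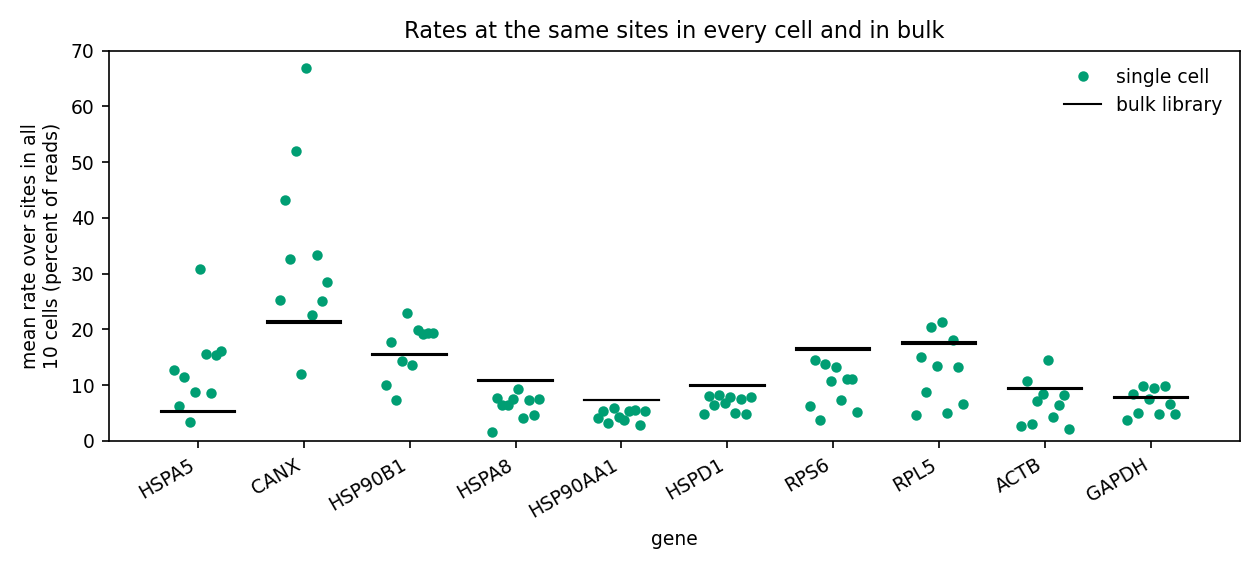
Mean rate in percent of reads (y axis) over sites listed in all 10 cells, for 10 genes (x axis), with 1 circle per cell and 1 line per bulk library. 9 of 10 cells lie above bulk for HSPA5 and CANX, and 0 of 10 for HSPA8, HSP90AA1, HSPD1 and RPS6. HSP90B1, RPL5, ACTB and GAPDH have cells on both sides.

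Within each cell the ER list lay above both cytosolic lists. Its median exceeded that of the ribosomal protein genes by 0.56 to 2.10 log2 units, and that of the cytosolic chaperone genes by 0.94 to 2.28, in 10 of 10 cells. At the sites of all 10 cells the differences were 0.32 to 1.51 and 0.53 to 1.65, again in 10 of 10 cells. The cells are 1 sample and share their chemistry, so this is not a test over replicates.

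Relative to the median gene of each set, other cytosolic mRNAs lay on the lower side at all shared sites. They did so less clearly at the sites of all 10 cells. Of 35 translation factor genes 28 were below the median gene, with a median of -0.39, and -0.25 at the sites of all 10 cells. At least 2-fold lower were 2 and higher 1, against 2.34% and 2.5% of all genes, and so few are not read as a result. EEF1A1, the elongation factor that brings tRNA to the ribosome, was at -0.96 and -0.38 on these sets, and EIF4G2, a translation initiation factor, at -0.74 and -0.30. BTF3, a subunit of the nascent chain complex, was at -1.27 and -0.58. The 31 proteasome genes had a median of -0.45, with 28 below, and -0.07 at the sites of all 10 cells. The 10 glycolytic genes had a median of -0.55, with 9 below, and -0.04. Among them ENO1 was at -0.82 and -0.15, LDHB at -0.98 and -0.38, GAPDH at -0.70 and -0.04, and LDHA at -0.31 and 0.25. Of 28 cytoskeleton genes 22 were below, with a median of -0.32 and -0.17. ACTG1, a cytoplasmic actin, was at -1.30 and -0.78, ACTB at -1.04 and -0.36, and TUBA1B at -0.32 and 0.25. ACTB and ACTG1 are close in sequence, and reads may be split between them.

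Genes of the nuclear-encoded respiratory chain changed side of the median gene between the 2 sets of sites, each with its own median gene. Of 53 measured genes 43 were below the median gene at the shared sites, with a median of -0.40. At least 2-fold lower were 2 of the 53, against 2.34% of all genes. At the sites of all 10 cells 25 of 36 were above it, with a median of 0.16. CYCS, cytochrome c, stayed lower, at -1.17 and -0.55, and ATP5F1B, an ATP synthase subunit, was at -0.73 and -0.09. Without centring, CYCS was at -0.60 and -0.66 and ATP5F1B at -0.16 and -0.20, so neither rose. The list's median without centring was 0.17 at all shared sites. Of the RNAs that mitochondria encode themselves only COX1 and RNR2 had 5 shared sites, at rates near the bottom of the table. COX1 was at 0.105% ± 0.02 in bulk and at 0.0330% to 0.0599% in the cells, the lowest relative ratio that met the naming rule, at -1.70. No cell reached the bulk value, but both values were under 0.2% of reads. RNR2, a mitochondrial rRNA, was at 0.171% in bulk and 0.186% in the cells, with 0.837% in cell 2 and at most 0.201% in each other cell. Its relative ratio was -0.45 at the shared sites and 1.07 at its 7 sites in all 10 cells.

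The remaining genes of the lowest ratios were FAM172A, PLEKHA7 and CLU, which encodes the extracellular chaperone clusterin. CLU was at 18.5% ± 0.26 in bulk and at 9.03% to 19.8% in the cells, with a relative ratio of -1.26. FAM172A was at 19.3% ± 0.66 and 6.19% to 18.4%, at -1.34. PLEKHA7, an adherens junction protein, was at 23.9% ± 0.13 and 8.44% to 22.2%, at -1.26. For CLU, FAM172A and PLEKHA7 no cell was above bulk at the sites that the cell listed. At the sites of all 10 cells these were at -0.59, -0.66 and -0.63.

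Most lists of cell-cycle and regulated mRNAs lay nearer to the median gene at all shared sites. The 32 measured S phase genes had a median of 0.06, with 17 above and 15 below, and the 37 genes of G2 and mitosis one of -0.00, with 18 above and 19 below. Early response and stress genes (22) stood at 0.19, with 12 above, mRNAs known for detained introns (25) at -0.07, and noncoding hosts of small nucleolar RNAs (14) at -0.21. Of the replication-dependent histone genes 3 were measured, at a median of -0.72, and of nuclear-retained noncoding RNAs 3, at 0.31. At the sites of all 10 cells the 8 remaining genes of G2 and mitosis had a median of -0.19, with 7 below the median gene, and the list was below it in 8 of 10 cells. The 6 S phase genes stood there at 0.09, the 5 early response genes at 0.03 and the 9 genes with detained introns at 0.06, and 4 hosts of small nucleolar RNAs at 0.0026. The interferon-stimulated list had bulk sites in 6 genes and no gene with 5 shared sites.

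Single sites show how far individual cells departed from the bulk rate. Coordinates are 1-based in hg38, and exon and intron annotation was not used here. Among sites listed in all 10 cells, chromosome 8 left out, that of INTS12 at chr4:105692105 had the highest mean over cells, at 94.3% (10 cells, SD 13.5), with 58.2% in the lowest cell and every read changed in the median and highest cells, against 81.9% ± 8.83 in bulk. A site of RPS2, a small subunit ribosomal protein, at chr16:1962733 was farthest above bulk, at 16.6% in the lowest, 97.5% in the median and every read in the highest cell, against 25.5% ± 0.40. A site of CD81, a tetraspanin, at chr11:2397374 ran from 12.7% to every read, against 21.3% ± 1.82. The site of DNAJB1 at chr19:14518395 ran from 45.6% through 54.4% to 69.9%, all above 9.00% ± 0.099 in bulk. It had an SD of 7.65 points over cells, against a median of 9.05 points over the sites listed in all 10 cells. Farthest below bulk was a site of NBEAL1 at chr2:203191089, at 4.00%, 22.8% and 58.3% against 67.2% ± 2.67. A site of CHCHD3, a mitochondrial membrane organiser, at chr7:133035432 was at 15.3%, 30.8% and 63.3% against 68.2% ± 3.47. All 10 cells were below bulk at these last sites.

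Sites that the bulk table lacked were of lower mean rate, but more of them stood at 90% or more. In all, 24146 such sites were listed in 5 or more cells, with a mean of 13.96% and 31.2% of them under 1%, against 19.3% and 5.32% for the shared sites. At least 90% of reads were changed at 695 of them (2.88%), against 237 (0.193%) of the shared sites. Of the 695, 682 were in none of the 5 bulk tables compared, as were 18176 of all 24146. The bulk table holds only sites with an adjusted p-value under 0.05 in both libraries, per the authors' deposited table, so a site outside it may have been read there without passing.

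Over 67458 sites and 2233 genes held by every table, the cells were set against 5 bulk tables. Spearman's rho over genes was 0.797 with the HEK293T NES poly(A) table and 0.799, slightly higher, with the construct anchored at the ER membrane. It was 0.78 with NES in K562, a human leukaemia line, 0.76 with NES in rRNA-depleted RNA and 0.68 with the nuclear construct. Over sites, 10 of 10 single cells had a higher rho with NES than with the nuclear table and 10 of 10 than with the ER table, although the medians over cells, 0.5597 and 0.5564, were nearly equal for the last pair. 8 of 10 were nearer to HEK293T than to K562. Of the 10 markers chosen for HEK293T 8 had bulk sites there, 1132 in all. Of these, 5 also held 1185 sites in K562 bulk, so the list as a whole did not separate the lines. NEFL, NEFM and CDKN2A had 113, 173 and 105 sites in HEK293T bulk and 0 in K562. Shared with the cells were 0, 2 and 54 of these sites. The 16 erythroid markers of K562 had 0 sites in HEK293T bulk, against 1263 in K562. In the data of the cells themselves, sites shared with bulk or not, 26 sites lay in 3 of the 16 markers, between 0 and 20 in a cell, with a median of 0.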

How the data were processed

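The members and gene lists were chosen with earlier results of these data known. Per the submitters' processing notes, the tools were cutadapt, STAR, Bowtie2 and SAMtools and the build was hg38; tool versions and the calling of sites: not given in the sources used here. For the cells, the labels' protocols give SMART-Seq v4, whereas the titles give Smart-seq2. Each deposited value is a fraction of reads with the change at a site, per cell or per bulk library, printed here as percent. The bulk table adds the authors' deposited adjusted p-value for each library, all under 0.05. No file gives reads, so depth is unknown and no interval was computed. Rows that repeat a site under a second gene name in a cell were merged, and gene names were taken from the bulk table; 37 of 3038 genes are joint names. Of the single symbols, 99.1% were found in RefSeq (GRCh38.p14), the source of sequences and gene positions.

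Genes needed 5 shared sites. Ratios are log2 of cells over bulk with no pseudocount, minus the median gene, and the call was 2-fold. Named genes are the 8 highest and 8 lowest past the fold with at least 10 shared sites, a value in at least 8 cells and 80% of cells on the same side of bulk, the 6 genes with the most shared sites, and up to 4 members of each list by shared sites; other members past the fold, and the most fully listed genes, were chosen after their values were seen. A gene that this rule selects is not reported here. Of the 4 sites at each end of 3 site rankings, some are printed. SD is over 2 bulk libraries or, where said, over cells. The computation was tested on simulated data. Tables were handled in pandas 2.3.3 and numpy 2.4.6 under Python 3.11.15, and plots were drawn in matplotlib 3.10.9.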

Additional observations from a re-analysis of the deposited data

Results flagged for a closer look

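Of 99 sets of values over the cells (measures per cell, list medians, genes named above, and single sites chosen by rank), 14 held a cell whose gap to its neighbour was large for the range (Dixon's criterion). The criterion is set to flag about 1 in 20 sets of independent, normally distributed values. These sets share the same cells, overlap in genes and include sites chosen by rank, so their number cannot be compared with that rate. Cell 3 had the highest share of shared sites at a rate of exactly 1, 2.66%, and listed the fewest sites. Cell 3 also had the lowest medians of the ribosomal protein list, -1.41, and of the respiratory chain list, -0.99. Cell 1 had the highest share of shared sites under 1%, 46.1%, and the lowest Spearman's rho with bulk over genes, 0.32. The same cell had the highest median of the list with detained introns, 0.58. Cell 10 had the highest median of the cytosolic chaperone list, -0.27. Cell 6 had the highest rates of HSPA5, 20.7%, and of IDI1, 49.0%, and the lowest median of the histone list, -1.76, over 3 genes. Cell 2 had the highest rate of RNR2, 0.837%, with the next cell at 0.201%. Among single sites listed in all 10 cells, that of INTS12 was lowest in cell 10, at 58.2%, and one of TMED10, a cargo receptor, was lowest in cell 7, at 51.6%. A site of RPSAP58 was highest in cell 2, at 90%; this gene is a pseudogene copy of RPSA, and its value is uncertain.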

How the results depend on the processing

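The calls of single genes depended most on the sites compared. With sites in 8 cells, 19 genes were at least 2-fold higher and 2 lower, and with sites in all 10 cells 4 and 0. With no minimum of sites the counts were 194 and 153, with 10 sites 42 were lower, with medians of site values 122 were higher, with each cell weighted alike 141 were higher, with a fold of 1.5 there were 375 and 381, and without centring 617 and 1. Counting unlisted sites as 0, an alternative chosen after seeing the data, left 17 lower. The difference of mean rates turned from 5.44 points to -1.80 at sites in all 10 cells. It was -0.83 with every unlisted shared site as 0. The median gene went from 0.57 to -0.11 at sites in all 10 cells. It was 0.039 with unlisted sites as 0, counted only in cells that listed a shared site of the gene. The ribosomal protein median of -0.88 was -0.52 with sites in 8 cells or each cell weighted alike, -0.30 at sites in all 10 cells or without centring, and -0.50 with unlisted sites as 0. In the same order of these 5 alternatives, the cytosolic chaperone median was -0.62, -0.57, -0.40, -0.44 and -0.61, and the proteasome median -0.14, -0.26, -0.071, 0.12 and -0.30. The respiratory chain median was -0.019 with 8 cells, 0.16 with all 10, 0.17 without centring and -0.11 with unlisted sites as 0. The glycolytic median was -0.042, 0.022 and -0.23 in the last 3 of these. The translation factor median was -0.17 with each cell weighted alike and 0.18 without centring, where the cytoskeleton stood at 0.25, the ER list at 0.85, membrane and secreted proteins at 0.95 and cholesterol synthesis at 1.07. Leaving out any 1 cell kept the ER median between 0.27 and 0.37 and the ribosomal protein median between -0.84 and -0.79, with 68 to 98 genes higher and 49 to 61 lower. The proteasome median ran from -0.45 to -0.32, its value without cell 4, and was -0.47 without bulk library 2. Of 48 genes followed, 24 were past the fold and 0 of these changed sign under the alternatives that gave them a value, while 11 of the others did. The 24 were set apart by their distance from the median gene in these same data. This contrast therefore follows from the selection and does not measure how stable the called genes are. Only 13 of the 24 had a value at sites in all 10 cells, and PDIA4, MCL1, SCD, SSR1 and COX1 were among those without one. Spearman's rho with each bulk table moved by less than its SD over cells. No rate of 0 was listed, so dropping zeros changed nothing, and a minimum of 20 reads was not run because the files give no reads. Each centred alternative used its own median gene as reference, at -0.11 over 634 genes for sites in all 10 cells, against 0.57 over 3038. Relative values therefore moved with this reference too, and other causes of the shifts were not tested. No paired analysis was possible because the cells share no numbered culture with the bulk libraries and no test was run.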

Other observations

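The excess of the cells over bulk was, as a ratio, larger at sites of low bulk rate than at sites of high bulk rate. Sites at 1% to 5% in bulk averaged 2.82% there and 5.31% in the cells, and sites above 50% averaged 58.4% and 61.2%. The bulk rate sets the bins and is also the denominator, and a rate above 50% cannot rise 2-fold. Part of this contrast is therefore fixed by the way it was made. Over genes the relative ratio went the other way, with a Spearman's rho of 0.18 with the bulk rate. With every unlisted shared site as 0 the cells stood at 3.31% and 45.8% in the bins of 1% to 5% and above 50%.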
